A study of Mus musculus with 12 samples.

Results

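The 8 genes followed here encode the kinases and adaptors of focal adhesions in SVR angiosarcoma tumors: the kinases Ptk2, Ptk2b and Src, the docking proteins Bcar1 and Pxn, and the linker proteins Tln1, Vcl and Ilk. They were chosen by gene name, and all 8 of the 8 names were found among the 54232 genes of the count table. All 8 were among the 12897 genes with enough reads to be tested. SVR is an endothelial line of C57BL/6 mouse origin, transformed by oncogenic Ras and SV40 large T antigen, and it was grown under the skin of athymic nude mice aged 8 to 12 weeks, which lack a thymus and most T cells. Dosing by gavage started 3 to 7 days after injection and was repeated daily with vehicle (control), trametinib at 1 mg/kg, cediranib at 3 mg/kg, or both drugs at these doses (combination). Trametinib inhibits MEK, the kinase above ERK, and cediranib inhibits the VEGF receptors. Each group had 3 tumors, and RNA of each whole tumor was captured with exome probes, because the RNA was partly degraded, and sequenced.

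Focal adhesions are the sites where integrins, the receptors for extracellular matrix, are tied to the actin skeleton. FAK (encoded by Ptk2) is recruited to clustered integrins and phosphorylates itself, which creates a docking site for Src, and the pair then phosphorylates p130Cas (Bcar1) and paxillin (Pxn), whose phosphorylated sites gather the exchange factors that drive membrane protrusion. PYK2 (Ptk2b) is the only close relative of FAK and responds to calcium as well as to integrins, talin (Tln1) switches integrins on and joins them to actin, vinculin (Vcl) strengthens that link under load, and ILK is a pseudokinase held in a complex with PINCH and parvin. In endothelial cells this machinery carries VEGF receptor and matrix signals into migration and vessel sprouting.

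The libraries held 9478865 to 11666094 counts, and the members had from 58 (Ptk2b in trametinib replicate 3) to 17717 counts (Tln1 in cediranib replicate 1) in a library. A gene with no reads could have had up to 3 counts, or 0.257 to 0.316 CPM (counts scaled to library size with TMM normalization, the unit used below), and every member was above that in each tumor. The endothelial label held in part: Cdh5, which encodes VE-cadherin, was read in all 12 tumors (76 to 1192 counts), whereas Pecam1 had 3 to 54 counts. Tumors also differed in tissue from outside the line, with skeletal muscle markers summing to 19746 CPM in control replicate 2 and 29958 CPM in trametinib replicate 2 against 9.58 to 2153 CPM in the other 10 tumors.

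Trametinib lowered the transcripts of 4 of the 8 members, Ptk2b, Pxn, Tln1 and Ptk2, and raised none (edgeR quasi-likelihood test, FDR under 0.05). Of all genes tested 6.11% passed in either direction and 3.47% passed as lower. Ptk2b fell furthest, by 8.87-fold, while the other 3 fell by 1.46-fold to 1.83-fold. The median log2 fold change of the 8 members was −0.53, beside 0.0057 for all genes tested. Under the combination the same 4 genes passed, all lower, where 9.97% of all genes passed and 5.13% passed as lower, and the members' median was −0.45 beside 0.0014 for all genes. Under cediranib alone 0 of 8 passed, beside 0% of all genes. In bulk tumor RNA, fewer cells of a type and less RNA per cell cannot be told apart.

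**Figure D1:**
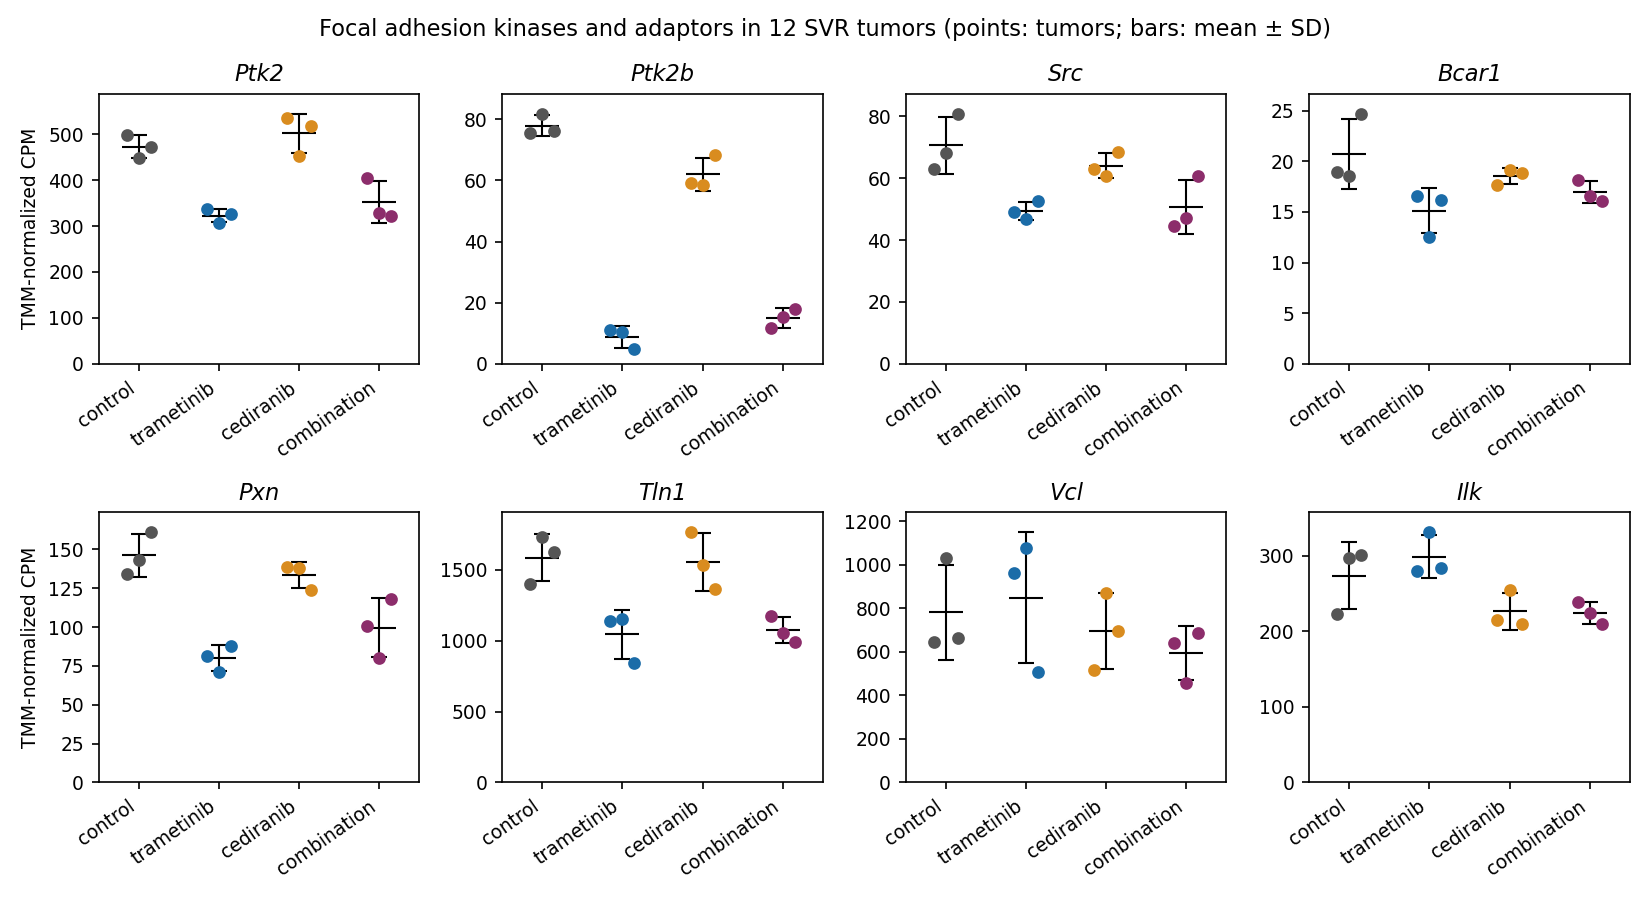
TMM-normalized CPM (vertical axes, each from 0) of the 8 genes in each of the 12 tumors, by treatment group. Points are tumors and bars are the mean ± SD of 3 tumors. Ptk2b lies between 4.85 and 18.0 CPM in all 6 tumors that received trametinib and between 58.6 and 81.9 CPM in the 6 that did not, while the groups overlap for Vcl.

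Ptk2b (ENSMUSG00000059456, chr14:66153257-66281052 of GRCm38, minus strand) encodes PYK2. Its levels were 75.6, 81.9 and 76.1 CPM in the 3 control tumors, 11.2, 10.3 and 4.85 CPM under trametinib, 59.1, 58.6 and 68.2 CPM under cediranib and 11.7, 15.3 and 18.0 CPM under the combination. All 6 tumors given trametinib, alone or combined, were below all 6 tumors not given it. Trametinib lowered Ptk2b by 8.87-fold against control (log2 fold change −3.15, SE 0.27, FDR 7.25e-05), and by p-value it ranked 10 among all genes tested. The combination lowered it by 5.18-fold against control (log2 −2.37, SE 0.26, FDR 0.000475) and by 4.13-fold against cediranib (log2 −2.05, SE 0.25, FDR 0.00139). It was the only member past the study's additional minimum of 1.5 on the log2 scale in any of these 3 comparisons. The calls for trametinib against control and for combination against cediranib held in all 12 fits that left out a tumor and in all 10 other settings. That for combination against control was lost in 1 setting, a fit with an endothelial score (log2 −2.33, FDR 0.0512).

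Marker genes were followed for cells that could carry Ptk2b transcripts besides the tumor line, and for endothelium, which includes the line itself. Ptk2b is also expressed by leukocytes, and the leukocyte gene Ptprc stood at 15.9 to 18.1 CPM in control, 10.4 to 14.5 CPM under trametinib and 12.1 to 22.0 CPM under the combination. All 3 trametinib tumors thus lay below all 3 control tumors for Ptprc, while the combination overlapped with control. Of 11 myeloid markers tested 0 passed for trametinib against control, and 3 were called lower for combination against control (Mrc1, Cd68 and Csf1r, with a list median of −1.06 on the log2 scale). Their summed level was 408 to 706 CPM in control, 316 to 450 CPM under trametinib and 194 to 340 CPM under the combination. The endothelium markers fell with trametinib, from 237 to 486 CPM in control to 109 to 172 CPM, with 3 of 11 tested markers called lower (Pecam1, Cdh5 and Tie1), and to 77.3 to 133 CPM under the combination, with 5 of 11 called lower (Robo4 and Kdr besides). Platelet markers summed to 5.06 to 12.3 CPM in control and 4.68 to 7.46 CPM under cediranib. They summed to 1.975 to 3.26 CPM under trametinib and 3.89 to 4.35 CPM under the combination. Of 2 tested, Pf4 was called lower for trametinib and 0 for the combination. Of all genes 3.47% and 5.13% were called lower in these comparisons. The part of platelets was not tested. With an endothelial score in the fit, an alternative chosen after seeing the data, the trametinib change of Ptk2b was −3.12 on the log2 scale (FDR 0.00108). With a myeloid score it was −3.24 (FDR 0.000147). As SVR is itself endothelial, the endothelial score does not set other cells apart from the tumor line.

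Ptk2 (ENSMUSG00000022607, chr15:73205102-73423280, minus strand) encodes FAK itself. It had 498, 448 and 471 CPM in control, 336, 307 and 325 CPM under trametinib, 534, 453 and 518 CPM under cediranib and 405, 329 and 322 CPM under the combination. The 6 tumors given trametinib again lay below the other 6. The change was small: 1.46-fold lower under trametinib (log2 −0.55, SE 0.12, FDR 0.0161), 1.34-fold lower under the combination against control (log2 −0.42, SE 0.12, FDR 0.0401) and 1.42-fold lower against cediranib (log2 −0.51, SE 0.12, FDR 0.0232). The trametinib call was lost without trametinib replicate 2 (FDR 0.0666) and with an endothelial score (FDR 0.0629). The combination call was lost without control replicates 1, 2 or 3 (FDR 0.0837, 0.0776 and 0.106), trametinib replicate 1 (0.0563) or combination replicates 2 or 3 (0.122 and 0.113), and held in 3 of 10 other settings. Against cediranib it was lost without cediranib replicates 1 or 3 (FDR 0.0806 and 0.0662) or combination replicates 2 or 3 (0.0869 and 0.0785), and held in 7 of 10 other settings.

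FAK and PYK2 thus changed by unequal amounts in the same tumors, which a ratio of their levels per kilobase of exon describes without a test. Ptk2b stood at 24.2%, 29.2% and 25.8% of Ptk2 in control, 5.34%, 5.38% and 2.38% under trametinib, 17.7%, 20.7% and 21.0% under cediranib and 4.61%, 7.43% and 8.90% under the combination. The ratio does not depend on library scaling. Both cediranib and control tumors lay at 17.7% or more, and every tumor given trametinib lay at 8.90% or less.

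**Figure D2:**
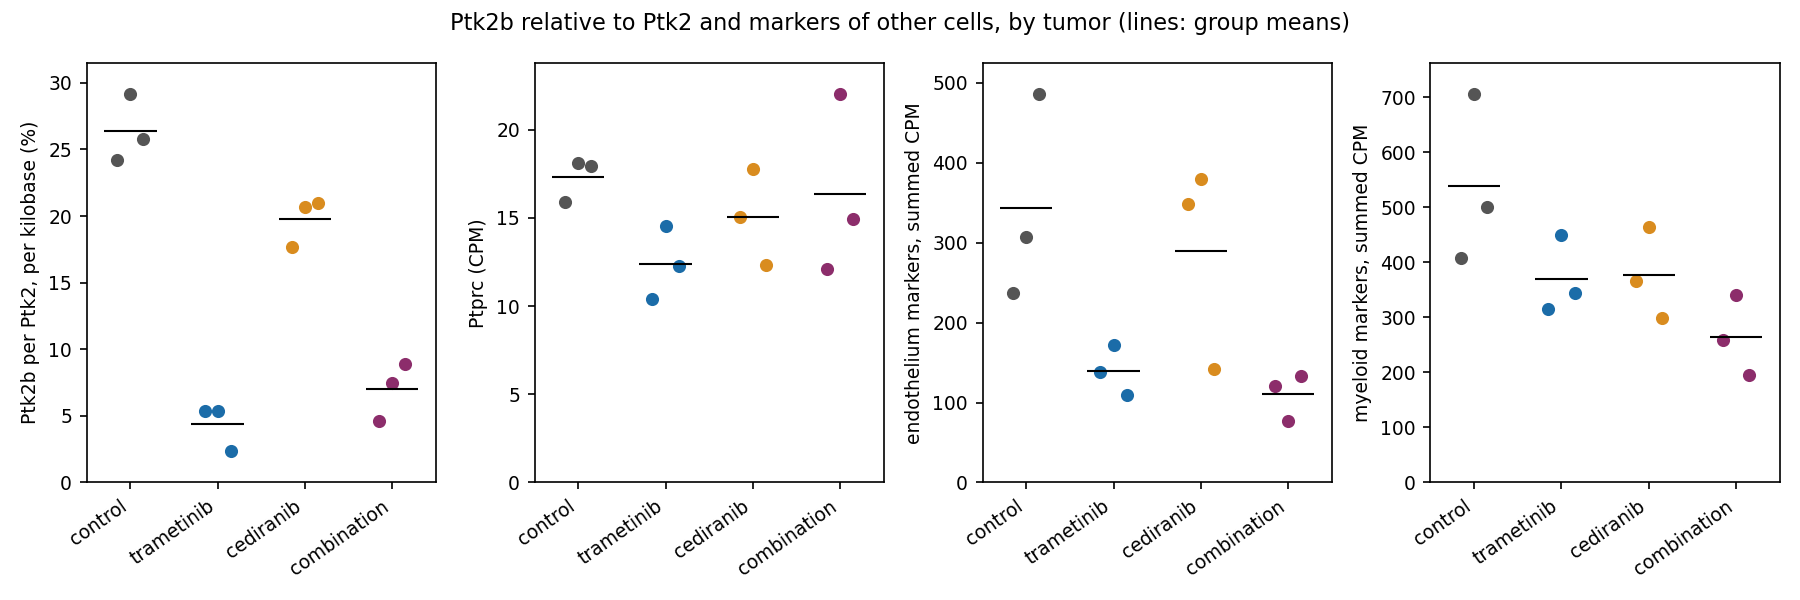
By tumor and treatment group, from left to right: the level of Ptk2b as a percentage of Ptk2 (both per kilobase of exon), CPM of the leukocyte gene Ptprc, and the summed CPM of endothelium and of myeloid markers. Points are tumors, lines are means of 3, and axes start at 0. The ratio separates the 6 tumors given trametinib (8.90% or less) from the other 6 (17.7% or more), while for Ptprc the trametinib tumors (10.4 to 14.5 CPM) lie below control (15.9 to 18.1 CPM) and the combination tumors (12.1 to 22.0 CPM) overlap with it.

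Src (ENSMUSG00000027646, chr2:157418444-157471835, plus strand), the kinase that binds activated FAK, had 63.0, 68.2 and 80.9 CPM in control, 48.9, 46.9 and 52.7 CPM under trametinib, 62.8, 60.6 and 68.5 CPM under cediranib and 44.6, 47.0 and 60.7 CPM under the combination. Every trametinib and combination tumor was below every control tumor, but the test was narrowly missed. The log2 fold change was −0.51 under trametinib (SE 0.14, FDR 0.0517) and −0.48 under the combination (SE 0.14, FDR 0.0508). DESeq2 placed both under the threshold (FDR 0.0167 and 0.0311). The edgeR fits with a replicate block (0.0284 and 0.0291) and without combination replicate 3 (0.0259 and 0.0256) did so too. The likelihood ratio test did so for trametinib (0.0434), and the fit without control replicate 1 for the combination (0.0461).

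Paxillin (Pxn, ENSMUSG00000029528, chr5:115506676-115555987, plus strand), the scaffold that brings FAK and vinculin to adhesions, showed 134, 143 and 161 CPM in control, 81.2, 71.0 and 87.7 CPM under trametinib, 139, 138 and 124 CPM under cediranib and 101, 79.9 and 118 CPM under the combination. Under trametinib it fell by 1.83-fold (log2 −0.87, SE 0.15, FDR 0.00448), and this call held without any 1 tumor. The endothelial score ended it (log2 −0.69, FDR 0.0968). Under the combination it was 1.47-fold lower than control (log2 −0.55, SE 0.15, FDR 0.0339), a call lost without control replicates 2 or 3 (FDR 0.0802 and 0.124) or combination replicates 1 or 2 (0.0905 and 0.114) and held in 5 of 10 other settings. Against cediranib its log2 fold change of −0.43 did not pass (SE 0.15, FDR 0.0981).

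Bcar1 (ENSMUSG00000031955, chr8:111710474-111743809, minus strand), which encodes the Src substrate p130Cas, was the least abundant member per kilobase in control tumors. It measured 19.0, 18.5 and 24.7 CPM in control, 16.6, 12.5 and 16.2 CPM under trametinib, 17.7, 19.2 and 18.8 CPM under cediranib and 18.1, 16.6 and 16.1 CPM under the combination. The 3 trametinib tumors lay below the 3 control tumors. No comparison passed; the log2 fold change was −0.45 under trametinib (SE 0.16, 95% interval −0.81 to −0.10, FDR 0.135) and −0.29 under the combination (SE 0.16, FDR 0.277).

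**Figure D3:**
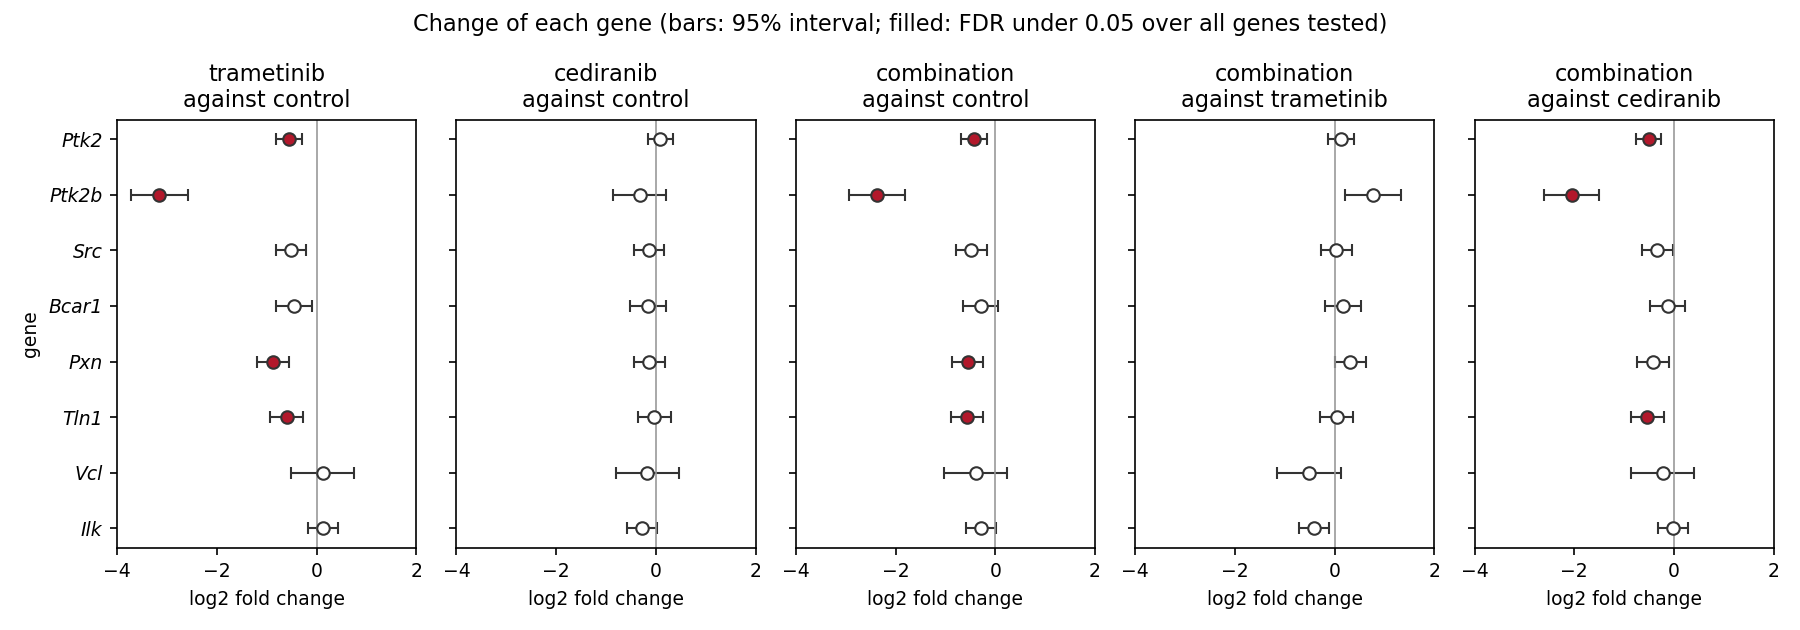
Log2 fold change (horizontal axes) of the 8 genes in 5 comparisons of 3 tumors against 3, from 1 fit of all 12 tumors. Bars are 95% intervals and filled points passed an FDR of 0.05 over all genes tested. Ptk2b stands at −3.15 under trametinib, other members lie between −0.87 and 0.13 there, and all intervals under cediranib alone include 0.

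Talin-1 (Tln1, ENSMUSG00000028465, chr4:43531519-43562422, minus strand), the protein that activates integrins, had the highest level per kilobase of the members in control tumors. It reached 1401, 1728 and 1629 CPM in control, 1140, 1151 and 846 CPM under trametinib, 1767, 1534 and 1365 CPM under cediranib and 1174, 1055 and 994 CPM under the combination. No tumor given trametinib reached the lowest of the other 6. The fall was 1.52-fold under trametinib (log2 −0.60, SE 0.15, FDR 0.0347), 1.48-fold under the combination against control (log2 −0.56, SE 0.15, FDR 0.0352) and 1.45-fold against cediranib (log2 −0.53, SE 0.15, FDR 0.0488). These calls were fragile. That for trametinib was lost without control replicates 2 or 3 (FDR 0.114 and 0.0975) or without any of the trametinib tumors (0.0584, 0.0523 and 0.0996), and that for the combination without control replicates 2 or 3 (0.112 and 0.104) or any combination tumor (0.0577, 0.0957 and 0.0997). The call against cediranib held in only 1 of 12 such fits, the one without trametinib replicate 3, with FDRs of up to 0.160 in the rest. In 7, 6 and 2 of 10 other settings the 3 calls held. With an endothelial score the trametinib change was −0.41 (FDR 0.350).

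Vinculin (Vcl, ENSMUSG00000021823, chr14:20929398-21033676, plus strand) had the largest standard error of the members. It had 647, 1031 and 665 CPM in control, 963, 1077 and 507 CPM under trametinib, 519, 868 and 695 CPM under cediranib and 643, 455 and 686 CPM under the combination. All groups overlapped. The log2 fold change under trametinib was 0.12 (SE 0.29) with a 95% interval of −0.51 to 0.75, and that under the combination −0.39 (95% interval −1.03 to 0.24). A fall of the size measured for Tln1 under the combination lay within that interval and was not detectable for Vcl at this spread. Its highest control and highest trametinib values came from the 2 tumors with the most skeletal muscle RNA (19746 and 29958 CPM of markers), but trametinib replicate 1 reached 963 CPM of Vcl with 288 CPM of muscle markers. The part of muscle in these values was not tested.

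Ilk (ENSMUSG00000030890, chr7:105736592-105742925, plus strand) had 223, 297 and 302 CPM in control, 281, 332 and 284 CPM under trametinib, 215, 255 and 209 CPM under cediranib and 238, 225 and 210 CPM under the combination. Under trametinib its log2 fold change was 0.13 (SE 0.14, 95% interval −0.17 to 0.43). The 3 combination tumors lay below the 3 trametinib tumors, a log2 fold change of −0.41 (SE 0.14) that did not pass over all genes (FDR 0.153). Keratinocyte markers summed to 3.01 to 8.16 CPM in these trametinib tumors and to 2941 to 4481 CPM in these combination tumors. With a keratinocyte score in the fit the Ilk value was 0.050 (FDR 0.997), and the part of skin in it was not tested.

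Counts of 3 linkers can include reads of neighbors. In the GENCODE M21 annotation, 2106 of the 2744 exon bases of Ilk are shared with Taf10 and 355 with Rrp8, 2090 of the 8191 of Vcl with Ap3m1, and 360 of the 9801 of Tln1 with Creb3, each time with a gene on the opposite strand. The sources used here do not say whether counting used strand, and without strand these reads cannot be told apart. Over the 12 tumors the gene with the highest correlation with Ilk among all genes tested was Taf10 (Pearson r = 0.97 of log2 CPM), and that with Vcl was Ap3m1 (r = 0.92). Taf10 itself had log2 fold changes of 0.10 under trametinib and −0.28 under the combination, close to the 0.13 and −0.29 of Ilk. The kinases, Bcar1 and Pxn shared no exon bases with another gene.

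The upstream sequences of Vcl and Tln1 are shown because only these held a searched motif. The series includes readouts of factors known to bind such motifs. Vinculin is a textbook target of SRF, the actin-regulated factor that binds the CArG box, and ETS factors are switched on by ERK. RefSeq promoters were matched for 5 of the 8 members (GRCm38.p6): Src, Bcar1, Tln1, Vcl and Ilk. None was matched for Ptk2b, Ptk2 or Pxn, each called lower under trametinib, so the search does not cover them. The 250 bases before the annotated start were searched on both strands. Capitals mark a CArG box in Vcl (chr14:20929148-20929397, plus strand) and the ETS letters CGGAAGT in Tln1 (chr4:43562584-43562833, minus strand). The ETS and AP-1 letters were chosen after these windows had been read.
Vcl: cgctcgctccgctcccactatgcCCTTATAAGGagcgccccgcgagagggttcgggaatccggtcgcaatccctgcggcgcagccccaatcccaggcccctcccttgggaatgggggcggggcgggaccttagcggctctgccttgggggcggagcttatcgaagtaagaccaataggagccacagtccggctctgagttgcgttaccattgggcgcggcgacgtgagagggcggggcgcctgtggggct
Tln1: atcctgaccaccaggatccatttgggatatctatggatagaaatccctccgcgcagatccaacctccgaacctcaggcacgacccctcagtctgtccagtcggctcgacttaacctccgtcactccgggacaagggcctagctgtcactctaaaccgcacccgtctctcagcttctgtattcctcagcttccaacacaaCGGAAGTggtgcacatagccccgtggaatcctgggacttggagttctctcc
The CArG box begins 227 bases before the start of Vcl, and 1.47% of 32851 mouse promoter windows of the same length hold one. The ETS letters begin 51 bases before the start of Tln1 and occur in 4.92% of windows. Neither exact motif was found in the windows of the other matched members. The AP-1 letters TGANTCA, which 6.75% of windows hold, were in none of the 5. Near matches were not counted, and the Ilk windows hold CGGAAG followed by another base. Because the ETS letters were chosen after reading, their presence or absence tests no difference between members. These matches describe sequence only and do not show binding.

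Levels between genes were compared per kilobase of exon, with the limit that capture probes differ between genes. Counts of Ilk, Vcl and Tln1 can also include reads of the neighbors named above, with 2106 of the 2744 bases of Ilk shared. In control tumors the order was Tln1 (162 ± 17.1 CPM per kb, SD, n = 3), Ilk (99.8 ± 16.2), Vcl (95.4 ± 26.5), Ptk2 (40.0 ± 2.13), Pxn (17.8 ± 1.68), Src (16.2 ± 2.10), Ptk2b (10.5 ± 0.469) and Bcar1 (4.56 ± 0.760). Ilk and Vcl did not differ beyond their spread, nor did Pxn and Src. Under trametinib Tln1 came down to 107 ± 17.7 CPM per kb, among Ilk at 109 ± 10.4 and Vcl at 104 ± 36.8. Ptk2b fell to the last place, at 1.19 ± 0.468 CPM per kb below Bcar1 at 3.32 ± 0.491, and it also stood last under the combination at 2.03 ± 0.426. Among all genes tested, the level of Ptk2b per kb went from percentile 73.0 in control to percentile 30.0 under trametinib, while that of Ptk2 went from 91.1 to 87.3.

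**Figure D4:**
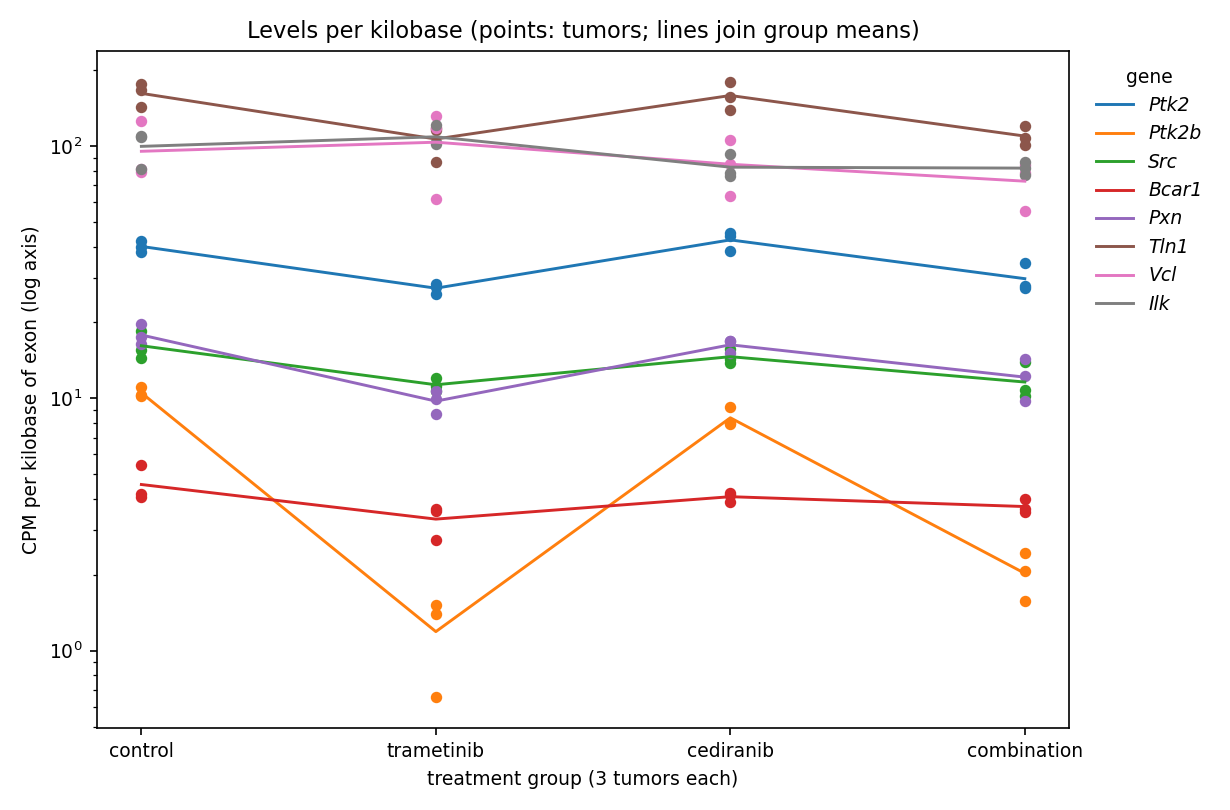
CPM per kilobase of exon (log axis) of the 8 genes by treatment group. Points are tumors and lines join the means of 3. Ptk2b crosses below Bcar1 in both groups given trametinib, from 10.5 CPM per kb in control to 1.19 under trametinib and 2.03 under the combination.

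Cediranib alone addressed whether VEGF receptor inhibition changed these genes. None of the 8 passed, none had an unadjusted p under 0.05, and the estimates ran from −0.33 (Ptk2b) to 0.09 (Ptk2) on the log2 scale. All 3 cediranib tumors were below all 3 control tumors for Ptk2b, at a difference that did not pass (95% interval −0.85 to 0.19). The interval for Ptk2 was −0.17 to 0.34. Of all genes 0 passed by edgeR and 557 had an unadjusted p under 0.05, while DESeq2 called 12 genes and the likelihood ratio test 16, with 0 members by either.

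Adding cediranib to trametinib was the next comparison. Again 0 of 8 members passed, beside 0.969% of all genes, and 2 had an unadjusted p under 0.05, Ptk2b and Ilk, in opposite directions. Skin content differed: keratinocyte markers summed to 3.01 to 8.16 CPM under trametinib, 41.3 to 2873 CPM under cediranib and 2941 to 4481 CPM under the combination. With a keratinocyte score in the fit 1 gene was called, and the part of skin was not tested. Ptk2b was higher in all 3 combination tumors than in all 3 trametinib tumors (log2 0.78, SE 0.26, 95% interval 0.21 to 1.34), and this did not pass (FDR 0.152). Without a filter on low counts it did (FDR 0.00245), where the alternatives gave FDRs of up to 0.948. DESeq2 called 0 members. Pxn had a log2 fold change of 0.32 with overlapping groups (FDR 0.281), and Ptk2, Src and Tln1 had 0.13, 0.036 and 0.039. Adding trametinib to cediranib lowered 3 members (Ptk2b, Ptk2 and Tln1, values above), where 7.68% of all genes passed and 3.78% passed as lower. The members' median log2 fold change was −0.38 in that comparison and 0.08 for combination against trametinib. The interaction, which asks whether cediranib acted differently with and without trametinib, was called for 0 of 8 members and for 0% of all genes, with 909 genes and 1 member, Ptk2b, at an unadjusted p under 0.05 (log2 1.10, SE 0.35, FDR 0.648). Without the filter Ptk2b passed here too (FDR 0.00424, with up to 0.870 among the alternatives). DESeq2 called 37 genes and 0 members, and the likelihood ratio test 28 genes and 0 members.

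The genes around these members were described from gene lists, by counts and medians. Among further adaptors of focal adhesions, 36 of 42 were tested and 6 rose and 4 fell under trametinib. Of all genes tested 6.11% passed in that comparison and 3.47% passed as lower. The median log2 fold change of the adaptors was −0.03 beside 0.0057 for all genes. Parvb, which encodes the parvin partner of ILK, fell from 15.9 ± 2.10 to 3.22 ± 0.975 CPM (SD, n = 3; log2 −2.29, FDR 0.000341), and Lims1, which encodes PINCH, rose from 211 ± 15.8 to 333 ± 3.03 CPM (log2 0.65, FDR 0.0024). These partners of ILK moved in opposite directions, and Ilk itself had a log2 fold change of 0.13 that did not pass. Nedd9, a relative of Bcar1 in the Cas family, rose from 10.5 ± 1.39 to 31.2 ± 5.04 CPM (log2 1.57, FDR 0.00268), where the value for Bcar1 was −0.45. Vasp, an actin-polymerizing partner of zyxin and vinculin, fell by 0.98 on the log2 scale (FDR 0.00109).

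Under the combination 4 of these adaptors rose and 7 fell (median −0.13), where 9.97% of all genes passed and 5.13% passed as lower. Parvb (log2 −1.54, FDR 0.0039), Vasp (−0.69, FDR 0.00781), Actn1, which encodes the actin crosslinker alpha-actinin-1 (−0.97, FDR 0.0113), and Fermt3, the kindlin of blood cells (−1.59, FDR 0.00665), had the smallest FDRs. Against trametinib alone Lims1 was the single adaptor called, lower by 0.49 on the log2 scale (FDR 0.0442). Lims1 stood at 238 ± 15.2 CPM under the combination. Calls in this comparison were few and fragile, falling from 125 genes to between 0 and 22 when any trametinib or combination tumor was left out. Against cediranib 6 rose and 5 fell, where 7.68% of all genes passed, and under cediranib alone 0 passed.

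Of the effectors below FAK, Src and p130Cas, 27 of 28 were tested. Under trametinib 1 rose and 1 fell, beside the 6.11% of all genes that passed, with a median of −0.0075. Arhgef7, which encodes the exchange factor beta-PIX that binds the paxillin partner GIT, fell from 64.2 ± 5.61 to 24.8 ± 3.57 CPM (log2 −1.37, FDR 0.000168) and to 24.4 ± 0.929 CPM under the combination (log2 −1.39, FDR 0.000369). It was also lower under the combination than under cediranib (log2 −1.54, FDR 0.000202). Asap1, a GTPase-activating protein that binds FAK and Src, rose by 0.60 under trametinib (FDR 0.0294). Arhgef7 was the only effector called in the comparisons of the combination with control and with cediranib.

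Among Src family kinases and their regulators, 18 of 20 were tested, and 0 rose and 3 fell under trametinib (median −0.22). There 6.11% of all genes passed and 3.47% passed as lower. Lyn, a Src family kinase, fell from 89.8 ± 10.1 to 29.7 ± 4.49 CPM (log2 −1.59, FDR 0.000102) and stood at 45.8 ± 3.73 CPM under the combination (log2 −0.97, FDR 0.0028). Ptpn12, the phosphatase that dephosphorylates p130Cas, fell by 0.69 (FDR 0.00284) and 0.56 (FDR 0.00845) on the log2 scale. Dok2, an adaptor of blood cells, fell from 3.42 ± 1.12 to 0.916 ± 0.329 CPM under trametinib (log2 −1.90, FDR 0.0162). Its lowest trametinib value, 0.634 CPM, lay near the limit for 0 reads of 0.257 to 0.316 CPM. Lyn, Dok2 and Fermt3 are known from leukocytes, whose gene Ptprc is given above, and their cell of origin was not tested. Proteins that restrain FAK signaling were tested for 8 of 11, of which 1 rose and 2 fell under trametinib: Cav1, caveolin-1, rose from 95.0 ± 15.4 to 195 ± 32.4 CPM (log2 1.04, FDR 0.0172), Rasa1 fell by 0.62 (FDR 0.0464), and Ptpn12 is in this list too. Under the combination 1 rose and 3 fell, where 9.97% of all genes passed and 5.13% passed as lower.

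Integrin subunits, the receptors above these kinases, were tested for 21 of 26. Under trametinib 2 rose and 2 fell (median −0.07), where 6.11% of all genes passed and 3.47% passed as lower. Itga6, a laminin receptor subunit, fell from 257 ± 21.4 to 27.1 ± 5.87 CPM (log2 −3.25, FDR 1.63e-05), and Itga3, another laminin receptor subunit, fell from 213 ± 20.9 to 115 ± 26.3 CPM (log2 −0.88, FDR 0.0114). Itga7, known from muscle, rose from 6.10 ± 1.03 to 31.5 ± 7.91 CPM (log2 2.37, FDR 0.0126), and Itga10, a collagen receptor subunit, from 6.45 ± 3.82 to 31.1 ± 12.9 CPM (log2 2.26, FDR 0.0358). Muscle markers, with 288 to 29958 CPM in the trametinib tumors, were not tested for their part in Itga7. Under the combination 1 fell and 2 rose, where 9.97% of all genes passed and 5.13% passed as lower. Itga6 stood at 45.5 ± 10.9 CPM (log2 −2.50, FDR 0.000225), Itga10 at 48.5 ± 29.8 CPM (log2 2.91, FDR 0.0107) and Itga7 at 25.8 ± 21.5 CPM (log2 2.08, FDR 0.0200). Muscle markers summed to 45.5 to 808 CPM in these combination tumors, against 9.58 to 19746 CPM in control.

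**Figure D5:**
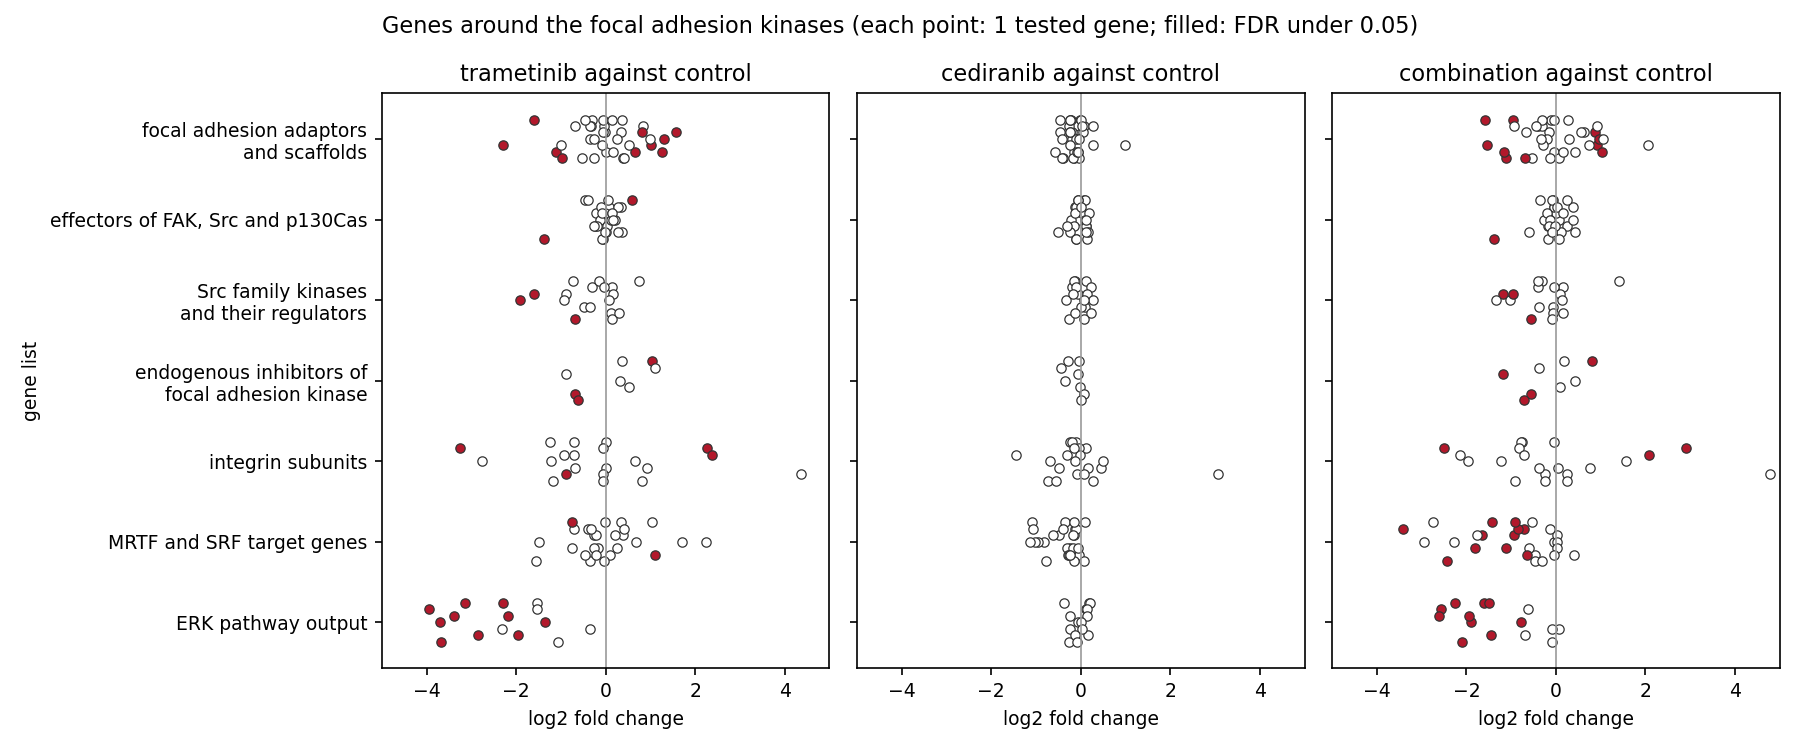
Log2 fold change (horizontal axes) of the tested genes of 7 lists around the focal adhesion kinases, for each treatment against control. Each point is 1 gene and filled points passed an FDR of 0.05 over all genes tested. Under cediranib 0 points are filled, 10 genes of the ERK output list are filled and lower in each of the other panels, and 11 SRF targets are filled and lower under the combination.

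Readouts of the inhibited pathway were set beside the members. Of 15 genes of ERK output tested among 16, 10 fell under trametinib (median −2.29) and 10 under the combination (median −1.51), with 0 under cediranib. Of all genes 3.47%, 5.13% and 0% were called lower in these comparisons. Dusp6, an ERK phosphatase, fell from 44.3 ± 4.69 to 3.37 ± 1.29 CPM (log2 −3.70, FDR 1.59e-05) and stood at 11.8 ± 1.91 CPM under the combination. Between combination and trametinib, 4 of these genes were called higher, Dusp6 (log2 1.79, FDR 0.0196), Etv4, Etv5 and Spred3, and 0 lower. The corresponding difference of Ptk2b was 0.78 and did not pass.

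SRF targets, the actin genes and their partners, were tested for 27 of 29. Under trametinib 1 rose and 1 fell (median −0.18), where 6.11% of all genes passed. Under the combination 0 rose and 11 fell (median −0.71), where 9.97% of all genes passed and 5.13% passed as lower. Ankrd1 fell from 113 ± 29.1 to 32.0 ± 4.23 CPM (log2 −1.81, FDR 0.00155), Cnn2, calponin-2, from 135 ± 21.1 to 50.2 ± 13.2 CPM (log2 −1.43, FDR 0.00523) and Actg1, cytoplasmic actin, by 0.94 on the log2 scale (FDR 0.0105). Cnn2 was the single target called between combination and trametinib (log2 −1.43, FDR 0.0249). Vcl, the member with the CArG box shown above, had −0.39 with an interval from −1.03 to 0.24. Smooth muscle and pericyte markers moved as well: of 8 tested under the combination 3 fell (Rgs5, Tagln and Pdgfrb) and 1 rose (Notch3), with a median of −1.70, and their summed level was 96.4 to 256 CPM against 112 to 498 CPM in control. Acta2, Tagln and Cnn1 are in both lists, and the part of such cells in the SRF counts was not tested. In the combination tumors keratinocyte markers summed to 2941 to 4481 CPM, against 17.3 to 622 CPM in control, and with a keratinocyte score in the fit 1 member was called for combination against control.

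Genes whose levels followed a member most closely over the 12 tumors were taken as the 3 with the highest Pearson correlation of log2 CPM, a description in which the 4 groups and the library preparation are shared. For Ptk2b these were Ccnd1, which encodes cyclin D1 (r = 0.98), Itga6 (r = 0.97) and 1700006J14Rik (r = 0.97). For Ptk2 they were Sh3rf1 (r = 0.98), Cdyl2 (r = 0.97) and Polr1b (r = 0.96), for Src Git1 (r = 0.94), Dhx33 (r = 0.94) and Yrdc (r = 0.93), and for Bcar1 Cmip (r = 0.95), Ppard (r = 0.92) and Glrx (r = 0.91). For Pxn they were Por (r = 0.96), Arap3 (r = 0.95) and Gm38287 (r = 0.95), and for Tln1 Rgs3 (r = 0.96), Acot7 (r = 0.96) and Plxna4 (r = 0.95). Vcl was followed after Ap3m1 by Kif26b and Csrp1, and Ilk after Taf10 by Sparc and Gm30489. Git1, the nearest gene to Src, belongs to the effector list and did not pass under trametinib (log2 −0.40).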

How the data were processed

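RNA of 12 SVR xenograft tumors (4 groups of 3, from the titles and treatment labels) was prepared with an exome capture kit. The authors aligned reads to GRCm38 with STAR 2.7.1a and made gene counts with featureCounts 1.6.0. The deposited values are raw counts, used as such. The sources used here give neither the strand setting nor which of the treatment experiments supplied the tumors, so time on treatment may differ. Deposited gene lengths equal merged exon lengths of GENCODE M21 for all 8 members. P-values measure the spread between these tumors.

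Counts were normalized with TMM, filtered with filterByExpr (minimum count 10, total 15) and fitted with the edgeR 4.0.16 quasi-likelihood model (R 4.3.3), all 12 libraries in 1 fit with group as the only term. A gene was called at a Benjamini-Hochberg FDR of 0.05 over 12897 genes. Standard errors are the absolute log2 fold change over the square root of F, with a prior count of 2 for log2 CPM. The limit for 0 reads covers counting error alone: without molecular identifiers, reads are not independent molecules. The model was tested on simulated data. A list gene could be named if it had 1 of the 4 smallest FDRs among those called in its list and comparison. Where none was called, only the largest change could be named. Kdr, called lower for the combination (FDR 0.0287), was named besides the 4. Genes named for a level, a correlation or list membership alone, such as Ptprc and Git1, fall outside this rule. The members, lists and alternatives (RLE factors, library totals, no filter, each tumor left out, replicate block, likelihood ratio test, DESeq2 1.42.0, only the groups compared, a log2 minimum of 1.5, keratinocyte and myeloid scores) were chosen with earlier results of these data known.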

Additional observations from a re-analysis of the deposited data

Results flagged for a closer look

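The estimates of Ptk2b for cediranib had opposite signs with and without trametinib, and neither difference passed. Without trametinib all 3 cediranib tumors were below all 3 control tumors (log2 fold change −0.33, FDR 0.999), and with it all 3 combination tumors were above all 3 trametinib tumors (0.78, FDR 0.152). The test of the difference itself, the interaction in the edgeR fit, gave 1.10 (SE 0.35) and did not pass over all genes (FDR 0.648). It passed in 1 alternative, without a filter on low counts (FDR 0.00424), and FDRs ran up to 0.870 in the others.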

How the results depend on the processing

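Of the 11 calls of members, none changed direction under any alternative, and the report gives those that were lost. Without a filter on low counts, genes called were 1690 for trametinib, 489 for cediranib and 2390 for the combination against control, 1411 for combination against trametinib, 1722 for combination against cediranib and 373 for the interaction, and members called were 2 (Ptk2b and Vcl) for combination against trametinib and 1 (Ptk2b) for the interaction; the cause was not tested. DESeq2 called 1280, 12, 695, 1501 and 37 genes for trametinib, cediranib, combination against trametinib, combination against cediranib and the interaction. The likelihood ratio test called 16 genes for cediranib, 633 for combination against trametinib and 28 for the interaction. With a log2 minimum of 1.5, genes called were 310 for trametinib, 466 for the combination and 315 for combination against cediranib, with 1 member in each. Fitting only the groups compared gave 355 genes for combination against trametinib, 2 members for the combination and 1 for combination against cediranib.

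Library totals alone gave a median log2 fold change over all genes of 0.13 for combination against control (0.0014 with TMM), 0.12 for the combination against either single agent and 0.11 for the interaction. They left 1 member called in the combination tumors, whether set against control or against cediranib, and moved the share of calls that were higher from 48.6% to 66.1%, from 74.4% to 84.9% (against trametinib) and from 50.7% to 67.6% (against cediranib). The keratinocyte score left 131 genes and 1 member for the combination, 1 gene for combination against trametinib and 621 for combination against cediranib. The myeloid score left 249 genes and 1 member, 0 genes and 654 genes. The endothelial score, chosen after seeing the data, left 421 genes and 1 member for trametinib, 41 and 0 for the combination, 255 and 1 for combination against cediranib, and 22 genes for combination against trametinib. Replicate numbers do not pair the tumors (3 of 18 same-numbered pairs had a correlation over 0.1, range −0.219 to 0.356, and 4 of 12 tumors correlated best with their own number). The fit with replicate block called 81 genes for combination against trametinib against 125 without it, and 5, 5 and 2 members for trametinib, the combination and combination against cediranib.

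Leaving out 1 tumor gave 458 to 852 genes for trametinib, 0 to 7 for cediranib, 515 to 1462 for the combination, 0 to 289 for combination against trametinib, 443 to 934 for combination against cediranib and 0 to 1 for the interaction, with 2 to 5 members for trametinib, 1 to 4 for the combination and 1 to 3 for combination against cediranib. Uncalled values near 0 changed sign. For combination against cediranib, Ilk (−0.012) became 0.10 with library totals, 0.0081 without the filter, 0.0031 by DESeq2 and 0.15, 0.098 and 0.28 with the keratinocyte, myeloid and endothelial scores. The keratinocyte score gave Ilk 0.040, 0.050, 0.16 and −0.0091 for the combination, combination against trametinib, the interaction and trametinib, Ptk2 −0.093 and −0.10 for combination against trametinib and the interaction, Tln1 0.0097 for cediranib, and Vcl 0.029, 0.026, 0.082, 0.054 and −0.056 for cediranib, the combination, combination against trametinib, the interaction and trametinib. The myeloid score gave Src −0.0018 for combination against trametinib and Tln1 0.010 for cediranib. The endothelial score gave Ilk 0.14 for the combination, Tln1 0.066 for cediranib and Vcl 0.17 and 0.16 for combination against cediranib and the combination. Leaving out 1 tumor gave ranges of −0.056 to 0.079, −0.22 to 0.014 and −0.017 to 0.20 for Ilk (combination against cediranib, interaction, trametinib), −0.050 to 0.11 for Ptk2 (interaction), −0.11 to 0.14 for Src (combination against trametinib), −0.13 to 0.046, −0.082 to 0.11 and −0.043 to 0.17 for Tln1 (cediranib, combination against trametinib, interaction), and −0.37 to 0.080 and −0.088 to 0.37 for Vcl (cediranib, trametinib).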
